A study of Arabidopsis thaliana with 16 samples.

Results

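Gibberellin A3 (GA3), an active gibberellin (GA), was compared with no GA3 in paclobutrazol-treated seedlings of the Arabidopsis thaliana line 35S::ARR1∆DDK:GR that received no dexamethasone (DEX). The comparison rested on 4 of the 16 Affymetrix ATH1 arrays of the series, chosen by their titles: 2 biological replicates with PAC and GA3 (PAC+GA3) and 2 with PAC alone (PAC). Paclobutrazol (PAC) blocks GA synthesis and was given at 10 µM for 18 h in both groups, with 50 µM GA3 added in one of them. All 4 arrays came from whole 6-day-old seedlings in the Columbia background, and both groups carried the transgene. The 35S promoter is active in most cell types, and the fusion of a truncated ARR1, a type-B cytokinin response regulator, to the glucocorticoid receptor stays largely outside the nucleus until DEX is given. No named probe set measured the transgene, so its transcript was not checked here. The same GA3 contrast existed in the line after 5 µM DEX for 3 h, and in wild type given benzyladenine (BA), a cytokinin, at 5 µM for 3 h, with 2 arrays in each group. Further groups were wild type (Columbia-0) without PAC, either untreated or given 5 µM DEX for 3 h, with 2 arrays each. Untreated wild type differs from the groups of the line in both PAC and the transgene, so levels set beside it cannot tell these apart.

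GA acts through DELLA proteins, nuclear regulators that bind transcription factors and hold back growth. GA bound to its receptor GID1 brings DELLAs to the F-box protein SLY1, after which they are degraded, so PAC lets DELLAs accumulate and GA3 removes them. Genes for GA synthesis and perception are known to respond to this loop, and growth in seedlings also draws on cell wall loosening proteins such as expansins and xyloglucan endotransglucosylases.

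The deposited values were log2 levels per probe set. Replicate arrays correlated at 0.968 in PAC and 0.985 in PAC+GA3 across probe sets. Photosynthesis markers were present at high log2 levels on the 4 arrays: RCA, Rubisco activase, at 10.7 to 10.9, SBPASE, a Calvin cycle enzyme, at 10.7 to 10.95, and LHCB4.1 at 10.4 to 10.7. The 2 named root markers, EXPA7 and AGL42, did not pass the filter on dim probe sets, with highest log2 levels of 2.82 and 2.44 on any of the 16 arrays, so the root part of the seedlings was not checked by named markers. Fewer cells of a type and less RNA per cell cannot be told apart in whole seedlings.

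A technical measure separated the groups. The array carries control probe sets for the 3' end and the 5' end of GAPDH transcripts, and their log2 difference becomes larger when RNA is degraded or incompletely copied. It was 6.88 and 6.93 on the PAC arrays and 6.09 and 5.64 on the PAC+GA3 arrays. The same difference for ubiquitin was 2.99 and 3.35 with PAC and 2.46 and 2.43 with PAC+GA3, and that between the 3' end and the middle of actin was 2.96 and 2.95 against 2.46 and 2.26. All 3 controls thus placed the groups apart without overlap. With DEX the GAPDH difference was 6.29 and 6.997 in PAC and 5.83 and 5.87 in PAC+GA3, again without overlap. In wild type with BA it ran the other way, at 6.61 and 6.14 in PAC and 6.67 in both PAC+GA3 arrays. The part of this measure in the results that follow was not tested. A fit with the GAPDH difference as a covariate is given with them, but its slope came from differences between replicates of the same group. Since PAC and PAC+GA3 did not overlap in this measure, that fit cannot separate it from GA3.

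Few single transcripts passed the test in the line without DEX. Of 9454 probe sets tested, 11 (0.116%) were called at an adjusted p under 0.05 with limma and Benjamini-Hochberg adjustment. Of these, 2 (0.0212%) rose and 9 (0.0952%) fell with GA3. The unadjusted p was under 0.05 for 1446 probe sets (15.3%), 960 of them higher and 486 lower with GA3, where 473 would be reached by a uniform distribution of p. This split followed the scaling, with 683 higher and 669 lower after quantile normalization, and 761 and 631 after centring on the 75th percentile. The median log2 fold change over all tested probe sets was 0.05, and the 95% interval of a single one typically reached 0.44 to either side. A fit of the 4 arrays alone called 0 probe sets, and so did a fit with the GAPDH difference as a covariate, chosen after seeing the data. In the covariate fit AT3G47295 had a log2 fold change of -1.13 (-1.29 without the covariate), and AT5G62340 had 1.25 (1.55 without). AT5G60400 had -1.005 (-0.99 without) and AT1G49310 had -0.98 (-0.99 without), while AT1G54410 had -0.49 (-0.99 without). These are the 5 called genes with a name. Their SE in the covariate fit was larger (0.235 to 0.365), and their adjusted p was 0.553 to 0.778 (limma).

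**Figure D1:**
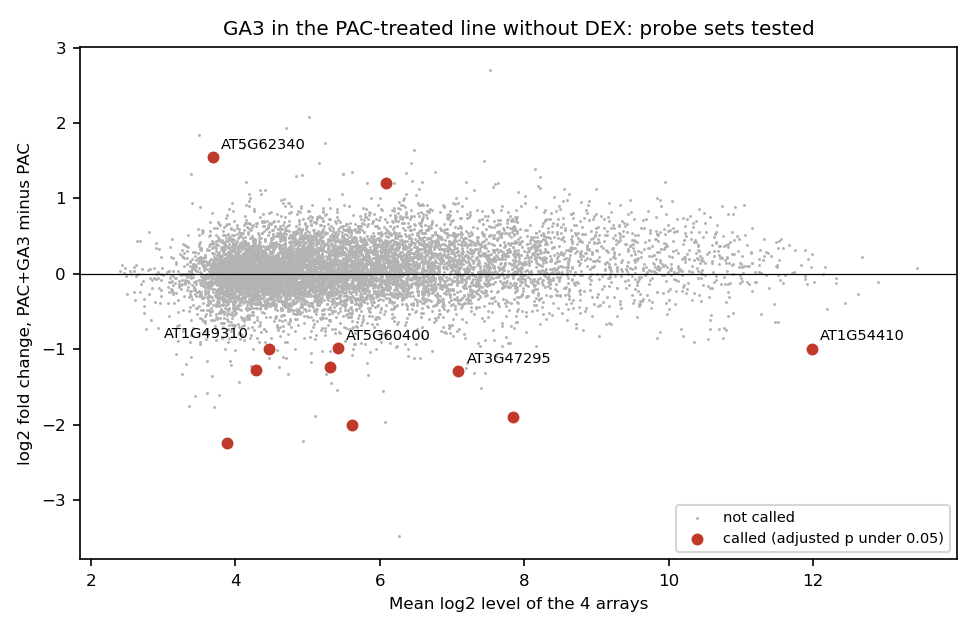
Each point is one of the 9454 tested probe sets, with its mean log2 level over the 4 arrays on the x axis and its log2 fold change (PAC+GA3 minus PAC) on the y axis. The 11 called probe sets are red, and those with 1 gene are named: 2 called points lie above 0 and 9 below.

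Of the 11 called probe sets, 5 carried the name of a single gene, and 4 of these genes fell with GA3. AT3G47295, a locus with no symbol, had log2 levels of 7.74 and 7.72 with PAC and 6.52 and 6.37 with PAC+GA3. Both GA3 arrays lay below both PAC arrays by more than 1 log2 unit. Its log2 fold change was -1.29 ± 0.13 (SE), a 2.44-fold lower level (adjusted p = 0.0029, limma, n = 2 arrays per group). It was called whichever of the 4 arrays was left out, with adjusted p of 0.0156 to 0.0384. In untreated wild type its mean log2 level was 7.02, between those of the PAC and PAC+GA3 groups of the line.

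AT1G54410 encodes HIRD11, a small dehydrin that binds metal ions, and had a high level on every array. Its log2 levels were 12.5 and 12.4 with PAC and 11.6 and 11.4 with PAC+GA3, which did not overlap. The fall of 0.99 on the log2 scale (SE 0.17, adjusted p = 0.0433, limma) was near the threshold. It was no longer called after quantile normalization (adjusted p = 0.0612) or when any 1 of the 4 arrays was left out (adjusted p of 0.0951 to 0.281), and with the GAPDH difference as a covariate its log2 fold change was -0.49. The levels in untreated wild type averaged 11.9.

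AT5G60400 and AT1G49310, a pair of loci without a symbol, fell by about as much. AT5G60400 had log2 levels of 5.93 and 5.90 with PAC and 4.98 and 4.88 with PAC+GA3, a log2 fold change of -0.99 ± 0.14 (SE, adjusted p = 0.0116, limma). AT1G49310 had 5.03 and 4.89 with PAC and 4.11 and 3.82 with PAC+GA3, also -0.99 ± 0.16 (SE, adjusted p = 0.0296, limma). Neither call was kept when any 1 of the 4 arrays was left out. The mean log2 level of AT5G60400 in untreated wild type, 5.40, lay between the groups of the line, and that of AT1G49310, 3.97, lay at the level with GA3.

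The only called gene with a name that rose was AT5G62340, which belongs to the invertase and pectin methylesterase inhibitor family. Its log2 levels were 3.08 and 2.75 with PAC, close to the lowest value of the table at 2.36, and 4.37 and 4.55 with PAC+GA3. The log2 fold change was 1.55 ± 0.20 (SE, adjusted p = 0.0089, limma), with the PAC level too close to the lower end of the scale for an exact fold. It was called without PAC replicate 1, and the adjusted p was 0.0788 to 0.149 without any of the other 3 arrays. The probe set passed the filter on dim values only through the 2 PAC+GA3 arrays, the highest of the other 14 being at 3.48, so that it had to differ to be tested at all. Its mean log2 level was between 2.57 and 3.14 in the 6 groups other than PAC and PAC+GA3 of the line without DEX.

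The other 6 called probe sets are named here by their IDs, because the annotation gave them no gene (5) or several (1). The probe set 261768_at had log2 levels of 5.05 and 4.96 with PAC and 2.60 and 2.93 with PAC+GA3, a log2 fold change of -2.24 ± 0.30 (SE, adjusted p = 0.0095, limma) towards the lower end of the scale. It was not called without a filter or when any 1 of the 4 arrays was left out. The probe set 257008_at had 8.73 and 8.87 with PAC and 6.90 on both arrays with PAC+GA3, a 3.74-fold fall (-1.90 ± 0.21 SE, adjusted p = 0.00295, limma) that was not called without PAC+GA3 replicate 1. These 2 probe sets also fell in wild type with BA, by 2.30 (adjusted p = 0.0217) and 1.43 (adjusted p = 0.0423) on the log2 scale. They were the only probe sets called in both comparisons. Among the rest, 265342_at rose from log2 levels of 5.35 and 5.61 to 6.73 and 6.64 (log2 fold change 1.21, adjusted p = 0.0089, limma), and the other 3 fell by 1.23 to 2.01.

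**Figure D2:**
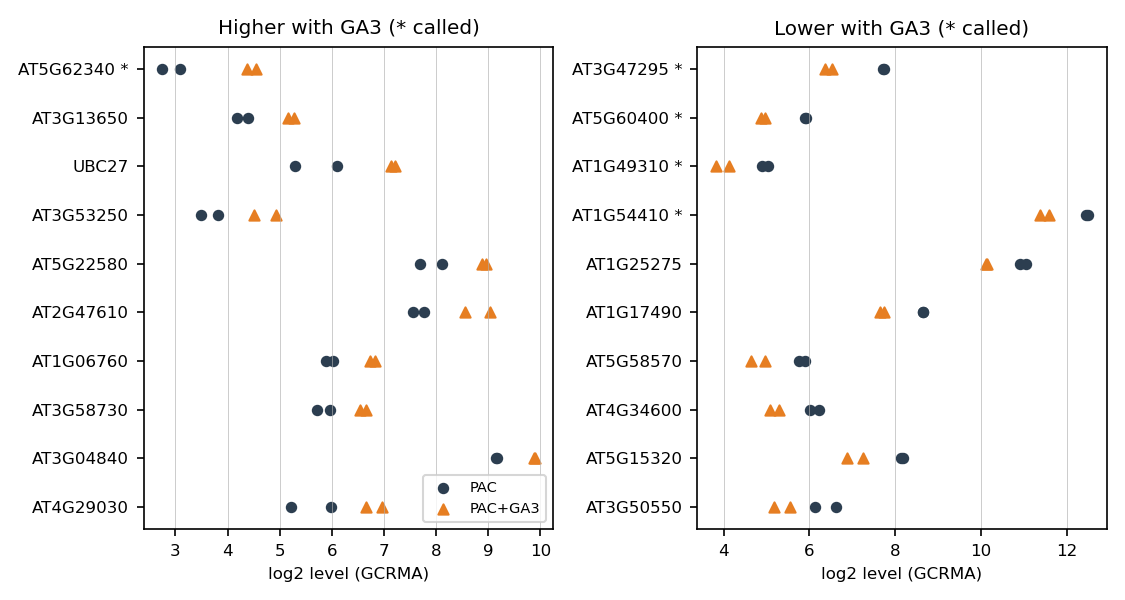
Log2 levels on the 4 arrays for the 10 genes of each direction chosen by call and then by smallest p, with circles for PAC and triangles for PAC+GA3. Stars mark the 1 gene on the left and the 4 on the right that were called, and the groups do not overlap for any gene because the choice required it.

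Beyond the called genes, those with the smallest p and groups that did not overlap had adjusted p of 0.0503 to 0.0852, and they are given as values. Groups that do not overlap were found for 27.4% of all probe sets tested in the higher direction and 16.6% in the lower. On the higher side was UBC27, a ubiquitin-conjugating enzyme, with log2 levels of 6.09 and 5.30 with PAC and 7.13 and 7.20 with PAC+GA3. AT3G53250, of the SAUR family of small auxin-induced transcripts, had 3.82 and 3.49 against 4.51 and 4.93. AT3G13650, a dirigent-like protein, had 4.38 and 4.18 against 5.16 and 5.28.

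AT5G22580, with a stress-responsive A/B barrel domain, had log2 levels of 8.11 and 7.69 with PAC and 8.95 and 8.87 with PAC+GA3, all above its mean of 5.60 in untreated wild type. A pair of genes of basic cell functions had smaller differences, with log2 fold changes of 0.83 for AT1G06760, a linker histone H1, and 0.76 for AT3G58730, subunit D of the vacuolar proton pump. The ribosomal protein genes AT2G47610 and AT3G04840 and the locus AT4G29030 completed the group, with log2 fold changes of 1.14, 0.72 and 1.21. On the lower side were AT1G25275, AT1G17490, AT5G58570, AT4G34600, AT5G15320 and AT3G50550, with log2 fold changes between -0.86 and -1.09. AT1G25275 was the closest to the threshold, with log2 levels of 10.9 and 11.04 with PAC and 10.1 on both arrays with PAC+GA3 (adjusted p = 0.0503, limma). It was called under 6 of the alternatives in processing, among them both other scalings.

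The lists of GA genes were thinly covered. None of the 25 loci for GA synthesis and inactivation and none of 16 bHLH growth regulators had a named probe set, so the classical feedback on GA synthesis could not be read by gene name. Of 25 loci for GA perception and DELLA signalling 2 were tested, and 0 were called. SEC, an O-GlcNAc transferase that modifies DELLAs, had log2 levels of 4.40 and 4.37 with PAC and 4.57 and 4.42 with PAC+GA3 (log2 fold change 0.11, 95% interval -0.31 to 0.53). SLY1, the F-box protein that marks DELLAs for degradation, had 3.96 and 3.80 against 4.01 and 3.91 (0.08, interval -0.51 to 0.67). The groups overlapped for SLY1 and were narrowly apart for SEC, and both intervals held 0.

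The few tested genes known to be induced by DELLAs had lower mean values with GA3. Of 11 loci 3 were tested, 0 were called, and all 3 log2 fold changes were below 0, with a median of -0.61 beside 0.05 for all tested probe sets, of which 42.9% were below 0. XERICO, a RING finger protein that raises abscisic acid levels, had log2 levels of 3.96 and 3.43 with PAC and 3.25 and 2.92 with PAC+GA3 (-0.61 ± 0.24 SE, adjusted p = 0.247, limma). AT5G50915, the transcription factor bHLH137, had 3.56 and 3.52 against 2.84 and 2.87 (-0.69 ± 0.31 SE, adjusted p = 0.303, limma). For these 2 genes the groups did not overlap, as for 16.6% of all probe sets tested in the lower direction. All their arrays with PAC and PAC+GA3 were below a log2 level of 4, near the lower end of the scale. AT2G31730, the transcription factor bHLH154, had 4.91 and 3.74 against 4.40 and 3.89, which overlapped, and its direction turned when PAC replicate 1 or PAC+GA3 replicate 2 was left out. For GA3 in the line with DEX the list's median was -0.14, and XERICO had a log2 fold change of -0.02. In wild type with BA the median was -0.56, and XERICO had -0.39.

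GASA genes encode small cysteine-rich peptides, several of which respond to GA. Of 15 loci 3 were tested and 0 were called. AT2G14900 (GASA7) had log2 levels of 6.44 and 6.41 with PAC and 5.84 and 5.27 with PAC+GA3, a log2 fold change of -0.87 ± 0.18 (SE, adjusted p = 0.0852, limma). AT1G22690 (GASA9) and AT5G59845 (GASA10) both had log2 fold changes of -0.03, with 95% intervals of -0.70 to 0.63 and -0.56 to 0.49.

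No tested gene of the cell wall loosening lists was called. The array named 19 probe sets for expansins and 10 for xyloglucan endotransglucosylases, of which 3 and 6 were tested. The 3 tested expansins, EXPA18, EXLA1 and EXPB3, had log2 fold changes of 0.33, 0.37 and 0.32, each with a 95% interval that held 0. Of the 6 tested xyloglucan endotransglucosylases 5 had values above 0, beside 57.1% of all probe sets tested, with a median of 0.11 beside 0.05. The other, XTH32, had a log2 fold change of -0.28 (95% interval -0.69 to 0.13). XTH16 had log2 levels of 4.96 and 4.48 with PAC and 5.50 and 5.24 with PAC+GA3, without overlap (log2 fold change 0.65 ± 0.23 SE, adjusted p = 0.206, limma).

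UDP-glycosyltransferases attach sugars to hormones and to secondary metabolites such as flavonoids. Of their 51 named probe sets 19 were tested. Of these, 0 were called, 14 had log2 fold changes below 0, and the median was -0.41. The unadjusted p was under 0.05 for 8 of them, all lower with GA3 (42.1% of the 19 tested, beside 5.14% of all probe sets tested). UGT87A2, known for a role in flowering time, had log2 levels of 6.92 and 7.55 with PAC and 5.95 and 6.48 with PAC+GA3 (adjusted p = 0.133, limma). UGT76C2, a cytokinin N-glucosyltransferase that is also in the list of cytokinin genes, had 3.75 and 4.06 against 3.13 and 3.38 (adjusted p = 0.157, limma), and UGT76E11 had 4.98 and 4.93 against 4.101 and 4.37 (adjusted p = 0.150, limma). The groups did not overlap for any of these 3 genes, which were chosen by smallest p. Across all probe sets tested, 16.6% did not overlap in the lower direction. The median of those tested was -0.17 for GA3 in the line with DEX and 0.04 in wild type with BA, with 15 and 8 of 19 values below 0.

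DFR, UF3GT and UGT78D2 were singled out after their values were seen, and a list fixed for anthocyanin synthesis was not tested. The list of glycosyltransferases also holds 2 of them, UF3GT and UGT78D2. DFR was in the list of chlorophyll and photoprotection genes, whose only other tested member, PORB, a protochlorophyllide reductase, had log2 levels of 6.61 and 6.78 with PAC and 6.95 and 7.41 with PAC+GA3. DFR, the dihydroflavonol reductase of anthocyanin synthesis, had log2 levels of 6.12 and 5.97 with PAC and 2.79 and 4.87 with PAC+GA3, so that the 2 GA3 arrays differed from each other by about as much as from PAC (log2 fold change -2.21 ± 0.81 SE, adjusted p = 0.220, limma). UF3GT, which decorates anthocyanins, had 4.15 and 4.36 against 2.36 and 2.92 (adjusted p = 0.192, limma), with 1 of the GA3 arrays at the lowest value of the table, so that its log2 fold change of -1.61 can only be a bound. UGT78D2, a flavonoid 3-O-glucosyltransferase, had 7.08 and 7.37 against 6.22 and 6.72 (-0.75, adjusted p = 0.187, limma). In the line with DEX the log2 fold changes of DFR, UF3GT and UGT78D2 were -2.96, -1.53 and -0.65, and in wild type with BA -1.84, -1.33 and -0.43. None was called in any of the 3 backgrounds.

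Of the other lists with 3 or more tested members, 1 held a called gene, the dehydrins with AT1G54410. The other 6 dehydrins and LEA proteins were not called, and the list's median was -0.09. LHCB4.3, a minor antenna protein of photosystem II, had log2 levels of 7.45 and 7.28 with PAC and 6.69 and 6.46 with PAC+GA3 (log2 fold change -0.79, adjusted p = 0.0831, limma), while LHCB4.1 had a log2 fold change of 0.14. HTB1, a histone H2B, had 6.51 and 5.94 against 6.99 and 6.98 (0.76, and 0.48 without PAC replicate 2, adjusted p = 0.153, limma), and CYP71B26, a cytochrome P450, had 7.13 and 7.07 against 6.64 and 6.51 (-0.53, adjusted p = 0.195, limma). The medians of the lists of cell cycle, cytochrome P450, WRKY and defence genes lay between -0.14 and 0.28.

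**Figure D3:**
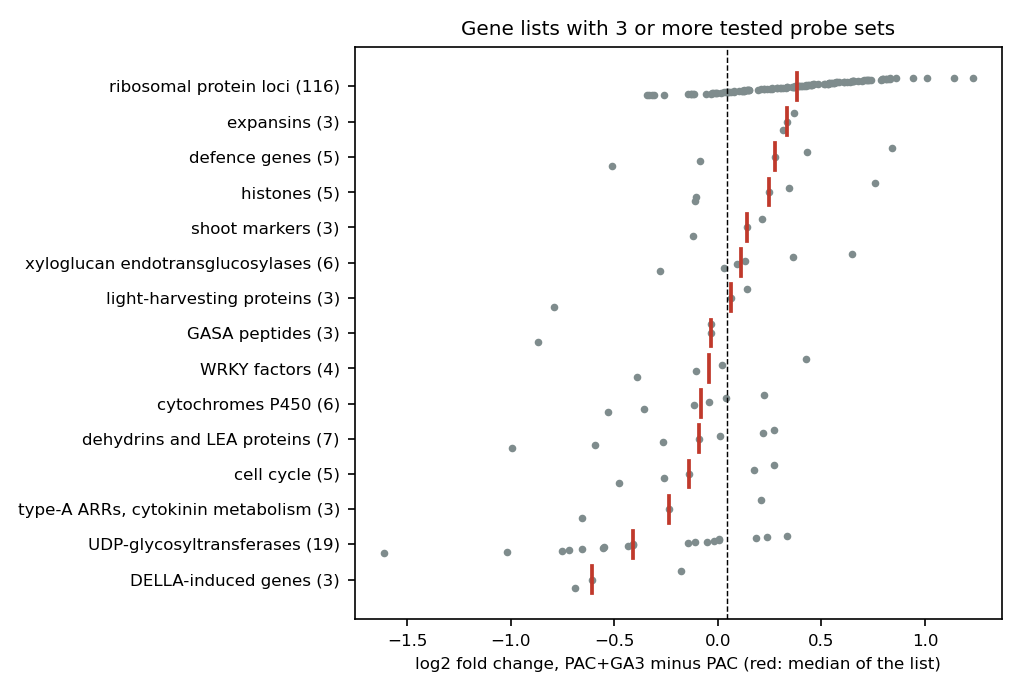
Log2 fold change (PAC+GA3 minus PAC) of each tested probe set, in rows by gene list with the number tested in brackets; red bars are medians, and the dashed line is the median of all tested probe sets, 0.05. The UDP-glycosyltransferases (median -0.41) and the DELLA-induced genes (-0.61) lie to the left, and the ribosomal protein loci (0.38) to the right.

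A broad pattern was seen in genes for cytosolic ribosomal proteins, the protein part of the translation machinery. Their list of 221 loci was written after values had been seen, so it is given as a description. Of the 116 probe sets tested 0 were called, 99 (beside 57.1% of all probe sets tested) had log2 fold changes above 0, and the median was 0.38. The unadjusted p was under 0.05 and the level higher for 50 of them, which was 43.1% beside 10.2% of all probe sets tested, and for none of them with a lower level. After quantile normalization these counts were 33 higher and 4 lower, with 90 values above 0 and a median of 0.24, and after centring on the 75th percentile 43 and 1, with 95 above 0 and a median of 0.34. AT2G47610, of the L7a family of the large subunit, had log2 levels of 7.76 and 7.55 with PAC and 8.55 and 9.04 with PAC+GA3 (adjusted p = 0.0831, limma). AT3G04840, of the S3a family of the small subunit, had 9.15 and 9.16 against 9.89 and 9.87 (adjusted p = 0.0852, limma), and AT4G16720, of the L15 family, had 9.45 and 9.16 against 10.1 and 10.2 (adjusted p = 0.0852, limma).

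The ribosomal protein values differed between arrays of the same group. The mean log2 level over the 116 probe sets was 9.20 and 8.72 on the PAC arrays and 9.25 and 9.41 on the PAC+GA3 arrays. PAC replicate 2 thus stood apart, and PAC replicate 1 lay near the GA3 arrays. Between these 2 PAC arrays the GAPDH differences (6.88 and 6.93) and the actin differences (2.96 and 2.95) were almost equal. The ubiquitin difference was 2.99 on replicate 1 and 3.35 on replicate 2. Without PAC replicate 2 the median log2 fold change was 0.18, and without PAC replicate 1 it was 0.60. With DEX, where the GAPDH difference was again smaller in PAC+GA3, the median was 0.24 and 105 of 116 values were above 0. In wild type with BA, where that difference was not smaller with GA3, the median was -0.23 and 96 of 116 were below 0. With the GAPDH difference as a covariate the median in the line without DEX was -0.10, from a fit that cannot separate this measure from GA3. PAC+DEX replicate 2, with the largest GAPDH difference of the 16 arrays at 6.997, had a mean ribosomal protein level of 9.41. PAC+DEX replicate 1, with a GAPDH difference of 6.29, had a mean level of 9.68. The part of the control measure in this pattern was not tested.

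**Figure D4:**
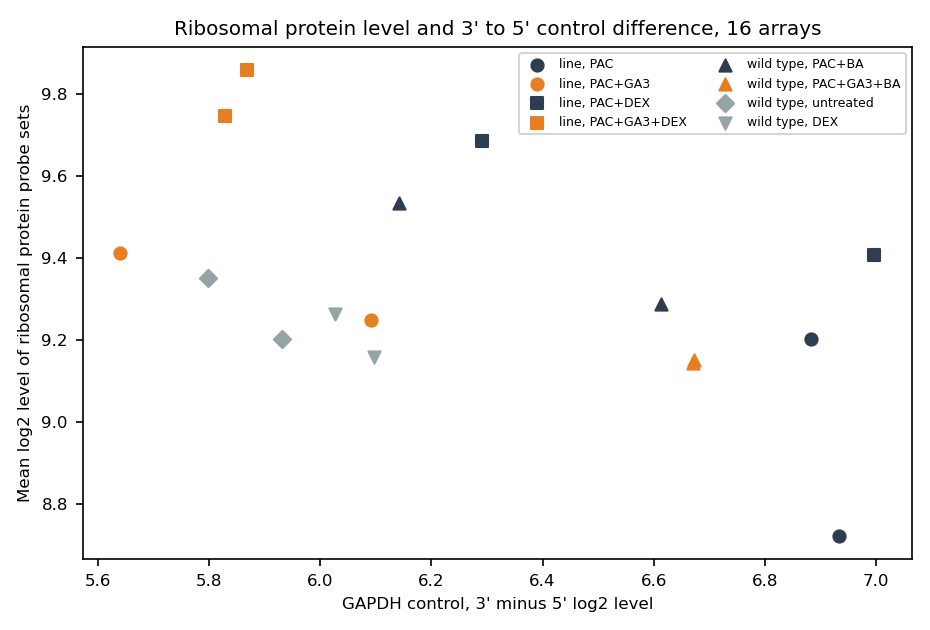
Each point is 1 of the 16 arrays, with the log2 difference between the 3' and 5' GAPDH control probe sets on the x axis and the mean log2 level of the 116 ribosomal protein probe sets on the y axis. Orange marks PAC+GA3, dark blue PAC and grey wild type without PAC; the 2 PAC arrays of the line without DEX lie at the right at 6.88 and 6.93, and its 2 PAC+GA3 arrays at the left at 6.09 and 5.64.

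The GA3 effect in the line without DEX was then set beside the same contrast in other backgrounds, which used other arrays. In the line with DEX 0 probe sets (0.00%) were called, with 927 at an unadjusted p under 0.05 and a smallest adjusted p of 0.125. In wild type with BA 3 (0.0317%) were called, 1 (0.0106%) higher and 2 (0.0212%) lower. The test of the difference between the GA3 effects without and with DEX called 0 (0.00%), with 188 at an unadjusted p under 0.05, and that between the line without DEX and wild type with BA also called 0 (0.00%), with 1229 at an unadjusted p under 0.05. The unadjusted 95% interval of such a difference typically reached 0.62 on the log2 scale to either side. Differences well above that, such as 1.94 for UBC27 against wild type with BA, were not called either. Across the 9454 probe sets, which are not independent, the log2 fold changes without DEX correlated at 0.66 with those with DEX and at 0.02 with those in wild type with BA. The GAPDH difference was smaller with GA3 in both contrasts of the line but not in wild type with BA. Genotype and BA also differed together between the line and wild type, and the part of each in these correlations was not tested.

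All 11 called probe sets had a log2 fold change of the same sign in the other 2 backgrounds. The share of all tested probe sets that kept their sign was not counted, so this is a description only. AT3G47295 had -0.68 (adjusted p = 0.128, limma) with DEX and -0.39 (adjusted p = 0.420) in wild type with BA. HIRD11 (AT1G54410) had -0.81 with DEX and -0.30 with BA, and AT1G49310 had -0.63 and -0.45. AT5G60400 had -0.15 with DEX and -0.52 with BA. AT5G62340 had 0.48 with DEX and 0.09 with BA, beside 1.55 without DEX. The difference was not called for either (adjusted p = 0.99995 and 0.303, limma). Its probe set passed the filter only through the 2 PAC+GA3 arrays without DEX, so the larger value there is no evidence of a difference between backgrounds.

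Several genes that were not called had log2 fold changes below 0 in all 3 backgrounds, and they were singled out after their values were seen. AT2G19970, of the CAP family that includes PR-1, had log2 levels of 7.27 and 6.82 with PAC and 5.25 and 4.92 with PAC+GA3. Its log2 fold changes were -1.958 without DEX, -1.28 with DEX and -1.95 in wild type with BA. The cytochrome P450 gene AT3G44970 had -1.55, -1.71 and -1.37 in that order, and the jacalin-related lectin gene AT1G52100 had -1.34, -1.05 and -1.49. STOMAGEN, a secreted peptide that raises stomatal density, had log2 levels of 8.24 and 7.67 with PAC and 6.78 and 6.83 with PAC+GA3, with log2 fold changes of -1.15, -0.88 and -0.34. The adjusted p of these 4 genes without DEX was 0.0852 to 0.1004. Among the DELLA-induced genes, AT5G50915 had its lowest value in wild type with BA, at -1.48, beside -0.69 and -0.73 in the line without and with DEX. The higher genes near the threshold did not all keep their sign. In wild type with BA, UBC27 had -0.47, AT1G06760 -0.25, AT2G47610 -0.14, AT3G04840 -0.08, AT3G58730 -0.04 and AT4G29030 -0.004. AT3G13650, AT3G53250 and AT5G22580 had 0.45, 0.68 and 0.51 there.

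**Figure D5:**
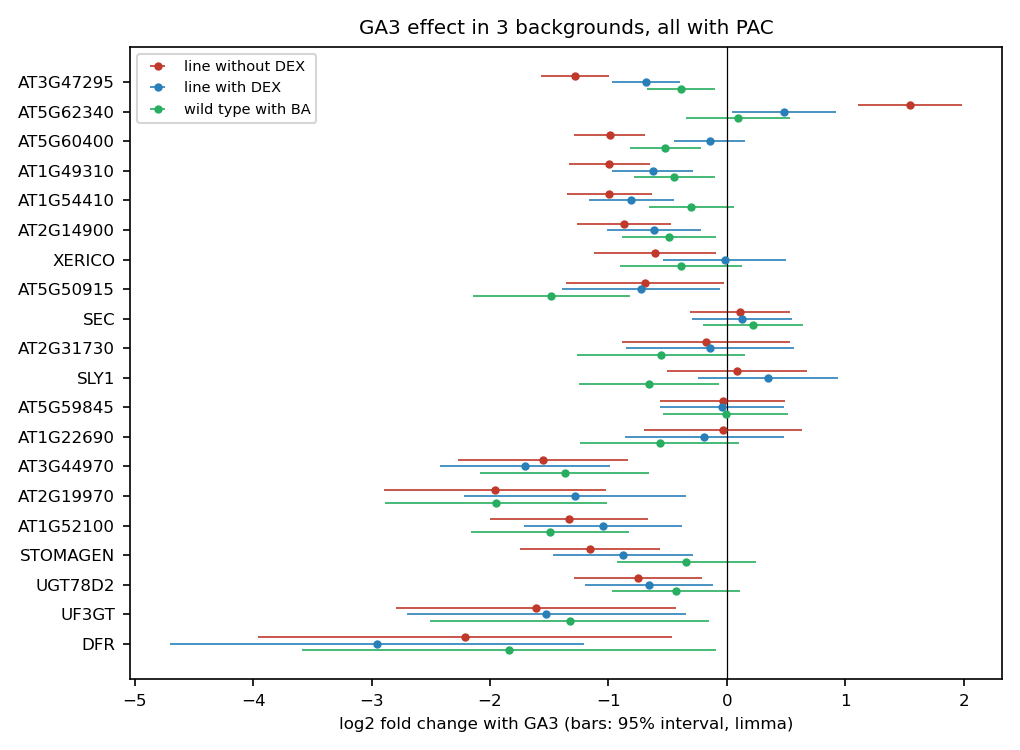
Log2 fold change with GA3 in the line without DEX (red), the line with DEX (blue) and wild type with BA (green), with bars for the 95% interval from limma; the top 5 genes were called without DEX, followed by members of the DELLA and GASA lists and genes singled out by their values. AT5G62340 stands at 1.55 without DEX and at 0.48 and 0.09 in the other backgrounds, whereas AT2G19970 lies between -1.28 and -1.958 in all 3. AT5G62340 passed the filter on dim values only through its 2 PAC+GA3 arrays without DEX, so it had to differ there to be tested at all.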

How the data were processed

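RNA of whole seedlings was hybridised to 16 Affymetrix ATH1 arrays, labelled as 2 biological replicates in each of 8 groups. The authors deposited one log2 level per probe set and array, computed by GCRMA according to the submitters' processing notes, which corrects background, normalizes arrays and summarises probes. The version of GCRMA is not given in the sources used here. Of 22746 probe sets other than the 64 controls, 9454 were tested, those reaching a log2 value of 4 on 2 or more arrays. The platform's annotation assigned 1 gene to 13513 probe sets, several to 503 and none to 8730, and 13436 were matched to a locus.

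Group means were fitted to all 16 arrays with limma 3.58.1 in R 4.3.3 (8 residual and 4.66 prior degrees of freedom). Tests were two-sided, with Benjamini-Hochberg adjustment over all tested probe sets and calls at an adjusted p under 0.05. The number of arrays limits the precision.

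Named genes were those called with groups that did not overlap (up to 15 a direction), filled to 10 by smallest p, all tested GA, DELLA and GASA list members, and up to 3 of each other list with 3 or more tested. Comparison, lists and tests were chosen with earlier results of these data known. Alternatives were other filters, scalings, moderation and array subsets, a replicate block, single arrays left out, and a Z test of standardised means at 1.96. Plots were made with matplotlib 3.10.9 (Python 3.11.15).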

Additional observations from a re-analysis of the deposited data

How the results depend on the processing

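Against 11 probe sets called in the line without DEX (2 higher, 9 lower), the count was 35 (7 and 28) with no filter, 7 (1 and 6) with a floor of 6, 17 (2 and 15) after quantile normalization, 16 (2 and 14) after centring on the 75th percentile, and 91 (38 and 53) at an adjusted p under 0.10, a threshold added after seeing the data. It was 0 in fits of the 4 arrays alone or of the 8 arrays of the line, where fewer arrays estimate the spread, and 0 with the GAPDH difference as a covariate, added after seeing the data. The Z test, which uses no spread between replicates, counted 494 (228 and 266). That count is near the 473 reached at an unadjusted p under 0.05 by a uniform distribution, so it is not read as more genes changed. Of the 11, 9 were also called with no filter, 10 after quantile normalization and 11 after centring. Leaving out 1 array gave 1 to 6 (0 to 2 higher and 1 to 5 lower): 6 without either PAC array, 1 without PAC+GA3 replicate 1 and 4 without PAC+GA3 replicate 2. A group left with 1 array was assumed to vary like the others. For these lost calls the cause was not tested.

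With the replicate number as a block the count was 19 (2 and 17), including all 11. The deviations of same-numbered arrays correlated at -0.33 to 0.48 over 28 pairs of groups, 21 of them over 0.1. Among the 4 groups of the line all 6 were over 0.1, at 0.11 to 0.41. Since other pairs of groups were below 0.1 and the labels name no shared batch, the numbers were not taken to pair the arrays. With the block AT1G25275, AT1G17490, AT4G34600 and AT5G15320 were also called, at adjusted p of 0.0362, 0.0432, 0.0169 and 0.0154. In the line with DEX the block called 1 against 0, and the 8 arrays of the line 2.

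For GA3 in the line with DEX, 69 were called with no filter, 422 by the Z test and 0 to 2 without 1 array. In wild type with BA the count of 3 became 51 with no filter, 0 with a floor of 6 or with its 4 arrays alone, and 479 by the Z test. Leaving out 1 array gave 0 to 173, with 173 without PAC+BA replicate 1 and 0 without any of the other 3. The 2 tests of a difference called 24 (without against with DEX) and 30 (against wild type with BA) with no filter.

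Of genes that were not called, the covariate turned the log2 fold changes of EXPB3 (-0.34), SLY1 (-0.71), AT5G59845 (0.30) and AT2G31730 (0.029). Leaving out 1 array gave -0.014 to 0.29 for LHCB4.1, -0.76 to 0.40 for AT2G31730 and -0.55 to 0.48 for AT1G22690. Counts of promoter motifs were not run, since no promoter sequence was used here.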
